A study of Mus musculus with 19 samples.

Results

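Ltf, Lcn2, C3, Muc1, Clca3a1 and Clca3a2 are 6 genes of the uterine epithelium that are known for secreted or surface products and for regulation by estrogen. The genes were matched by their GENCODE symbols on GRCm38 to the gene identifiers of the deposited counts, and 6 of the 49089 genes were taken this way. Endometrial RNA of wild-type C57Bl/6 mice had been sequenced in 19 libraries that fall into 5 groups. The 3 CONT libraries, numbered 1, 2 and 4, came from virgin females in estrus, collected around ovulation, with no mating. The 4 INT libraries came from females mated with intact Balb/c males and killed 3.5 days post-coitum (day 3.5 pc). The groups SVX, SVX_VAS and VAS, with 4 libraries each, were also taken on day 3.5 pc, but the Balb/c sires had been vasectomised, had no seminal vesicles, or both. The column names of the counts and the titles of the samples give these surgeries in a different order. The SVX columns, for instance, carry the title of the vasectomised males, so the 3 groups are called here by their column names alone and no surgery is attached to them. Each library was made from a pool of animals whose number is not given in the sources used here, and the endometrium had been scraped off the myometrium. The p-values below therefore measure the spread between pools.

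Estrogen acts on the uterus through its nuclear receptor ESR1, which binds DNA at palindromic response elements or at looser sites and raises the transcription of genes in the luminal and glandular epithelium. Around ovulation the epithelium secretes proteins into the uterine fluid and carries a tall coat of mucin. Under progesterone, before the embryo attaches, that program recedes. Ltf encodes lactoferrin, an iron-binding antimicrobial protein of the transferrin family and a textbook estrogen response gene of the mouse uterus. Lcn2 encodes lipocalin 2, which takes iron away from bacteria by holding their siderophores. C3 encodes the central complement component, and Muc1 a membrane-bound mucin of the epithelial surface. Clca3a1 and Clca3a2 encode secreted metalloprotease-like proteins that were named as calcium-activated chloride channel regulators. Ltf and Lcn2 are also stored in the granules of neutrophils.

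The promoters of the 4 genes that moved together and of Clca3a1, which moved the other way, are shown for their regulatory sequence. All 6 genes matched a RefSeq promoter (250 bases before to 50 bases after the start, GRCm38.p6), and 5 are printed 5′ to 3′ with the estrogen receptor core motif GGTCA, or its reverse complement TGACC, in capitals.
Ltf (chr9:111019042-111019341, plus strand): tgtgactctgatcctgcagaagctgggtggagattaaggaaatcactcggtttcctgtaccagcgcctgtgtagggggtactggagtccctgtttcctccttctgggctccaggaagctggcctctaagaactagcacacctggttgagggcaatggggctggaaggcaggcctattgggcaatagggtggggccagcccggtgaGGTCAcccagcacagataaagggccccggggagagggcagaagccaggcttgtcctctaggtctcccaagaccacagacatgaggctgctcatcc
Lcn2 (chr2:32387690-32387989, minus strand): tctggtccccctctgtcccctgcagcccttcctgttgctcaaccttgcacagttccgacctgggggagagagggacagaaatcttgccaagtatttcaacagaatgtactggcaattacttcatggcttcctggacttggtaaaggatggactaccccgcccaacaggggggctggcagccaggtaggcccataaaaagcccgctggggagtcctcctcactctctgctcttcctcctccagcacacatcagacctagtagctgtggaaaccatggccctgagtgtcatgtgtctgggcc
C3 (chr17:57228087-57228386, minus strand): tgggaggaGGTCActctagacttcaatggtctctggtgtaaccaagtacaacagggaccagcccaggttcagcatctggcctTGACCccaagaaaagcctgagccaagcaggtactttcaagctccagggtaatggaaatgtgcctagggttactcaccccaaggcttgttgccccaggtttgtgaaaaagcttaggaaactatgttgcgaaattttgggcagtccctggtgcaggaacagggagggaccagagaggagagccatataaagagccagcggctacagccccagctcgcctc
Muc1 (chr3:89228806-89229105, plus strand): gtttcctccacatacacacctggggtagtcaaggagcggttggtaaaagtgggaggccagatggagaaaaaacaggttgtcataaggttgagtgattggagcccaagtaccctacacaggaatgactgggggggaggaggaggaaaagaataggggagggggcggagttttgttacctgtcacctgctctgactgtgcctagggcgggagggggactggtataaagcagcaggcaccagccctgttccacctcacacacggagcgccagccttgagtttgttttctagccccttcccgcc
Clca3a1 (chr3:144760928-144761227, minus strand): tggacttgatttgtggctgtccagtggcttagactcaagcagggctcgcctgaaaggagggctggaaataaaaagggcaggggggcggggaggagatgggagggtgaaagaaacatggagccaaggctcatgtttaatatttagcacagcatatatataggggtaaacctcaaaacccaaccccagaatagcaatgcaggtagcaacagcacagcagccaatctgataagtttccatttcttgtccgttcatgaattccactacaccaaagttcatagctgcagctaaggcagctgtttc
The Ltf promoter held 1 core motif, which begins at position -45 from the start site. The C3 promoter held 2, beginning at positions -242 and -168, the second of them on the other strand. In the promoters of Lcn2, Muc1, Clca3a1 and Clca3a2 these letters were not in the window. The full palindrome GGTCANNNTGACC, searched on both strands with up to 2 mismatches, matched in none of the 6. Of 32851 promoters of the same length, 40.5% held the core motif, 0.0700% the exact palindrome, 0.877% the palindrome with at most 1 mismatch and 11.1% with at most 2. The core motif is part of the palindrome, so the searches overlap. A match of letters is a description of the sequence and not a binding site.

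The libraries held between 12661266 and 31781270 counts on genes, and 3 counts, the limit that a count of 0 allows, corresponded to 0.107 to 0.234 CPM (reads of a gene scaled to the size of its library). Of all genes, 17222 (35.1%) reached 3 CPM in at least 3 libraries and were tested, among them the 6 named genes. VAS 2 and VAS 3 stood apart from the 17 other libraries: 837 and 785 of the tested genes had no count there (4.86% and 4.56%), against 0 to 36 elsewhere. Their scaling factors were 1.29 and 1.33 against 0.848 to 1.02, and Col3a1, a stromal collagen, was at 528 and 540.2 CPM against at least 2819 in the other libraries of mated females. The differences of the 6 genes between VAS and estrus are also given without them. A gene was called when edgeR's quasi-likelihood test gave a false discovery rate (FDR) of 0.05 or less over all tested genes and a log2 fold change (logFC) of about 1.5-fold or more in either direction. Because bulk tissue was sequenced, fewer epithelial cells and less RNA per epithelial cell cannot be told apart in any of these values. Nor were the cells that gave the RNA of each gene identified.

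In estrus, C3 was the most abundant of the 6 genes per length, at 1115 ± 155 RPKM (SD, n = 3), followed by Ltf at 654 ± 147, Lcn2 at 541 ± 25.7, Muc1 at 179.6 ± 2.80, Clca3a2 at 5.91 ± 2.56 and Clca3a1 at 3.95 ± 0.772. The ranges of Ltf and Lcn2 over the 3 libraries overlapped, as did those of the pair of Clca genes. Within each estrus library, though, Ltf was above Lcn2 and Clca3a2 above Clca3a1. C3 and Muc1 lay clear of their neighbours in the order of mean RPKM. The estrus libraries were alike for Muc1, where the highest was 1.03 times the lowest, and for Lcn2, at 1.10 times. The 16 libraries of mated females were not alike, and the highest exceeded the lowest 688-fold for Lcn2, 148-fold for Ltf, 88.5-fold for Clca3a2, 37.3-fold for C3, 10.6-fold for Muc1 and 4.44-fold for Clca3a1.

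After mating with intact males, Muc1 was lower than in estrus and Clca3a1 was higher, and the 4 other genes were not called. That is 2 of the 6 genes, where 33.6% of all tested genes were called in this comparison, 20.9% as higher and 12.7% as lower. The study itself listed far fewer genes for this comparison at the same stated cutoffs. Its only lower genes were Adam33 and Aspg, so Muc1 was not among them. The reason for that gap was not tested. In SVX, Ltf, Lcn2, C3 and Muc1 were lower and Clca3a1 was higher than in estrus, 5 of the 6 genes beside 41.6% of all genes (23.1% higher, 18.5% lower). In SVX_VAS, Muc1 was lower and Clca3a1 higher, 2 of the 6 genes beside 38.6% (22.2% higher, 16.5% lower). In VAS, C3 and Muc1 were lower and Clca3a1 higher, 3 of the 6 genes beside 40.6% (23.3% higher, 17.3% lower). The 4 comparisons share the 3 estrus libraries, so they are not separate pieces of evidence. An exact permutation test of 3 libraries against 4 cannot give a two-sided p below 0.0571, the value it gave wherever 2 groups had no overlap. Estrus and mated libraries had no overlap for 4 of the 6 genes in INT, 6 in SVX, 4 in SVX_VAS and 5 in VAS, beside 62.3%, 70.9%, 67.5% and 55% of all tested genes.

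**Figure D1:**
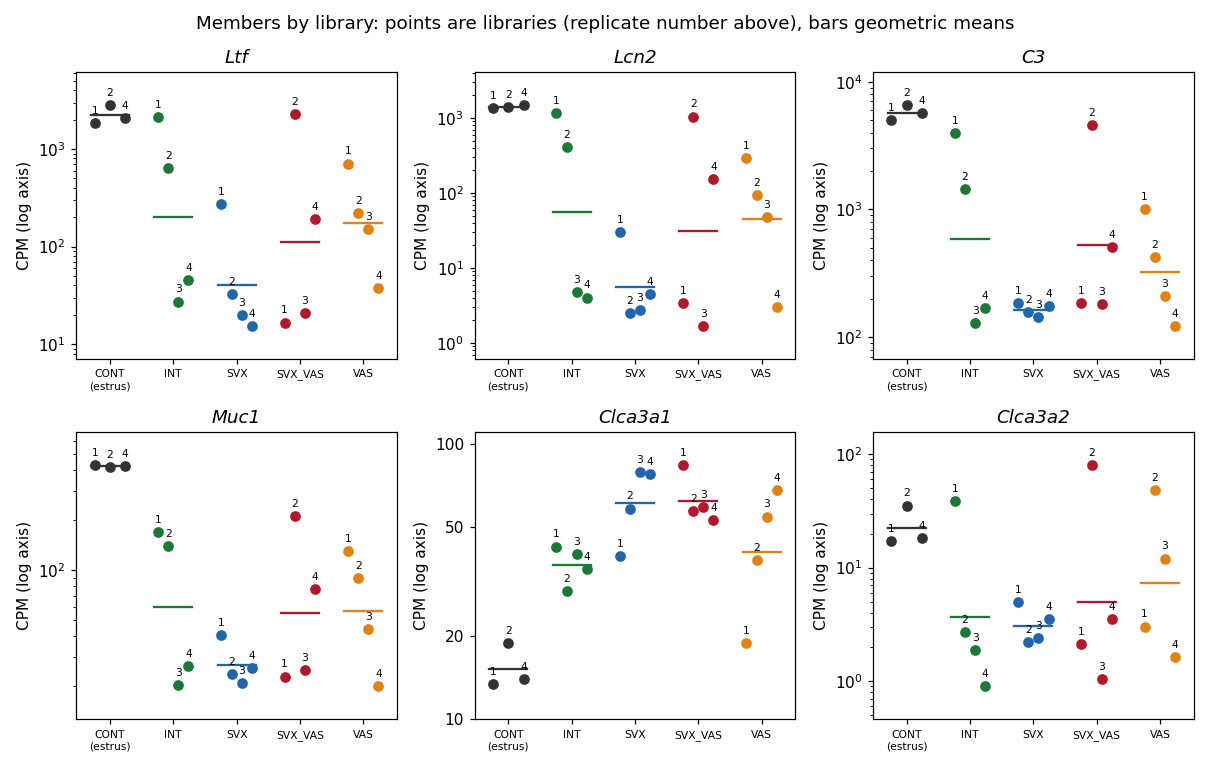
CPM of each gene (log axis) in the 19 libraries by group. Points are libraries with the replicate number above them, and bars are geometric means. INT 1 and SVX_VAS 2 lie near the estrus libraries for Ltf, Lcn2 and C3, with Ltf at 2143 and 2286 CPM, while Clca3a1 is at or above 18.9 CPM in the 16 libraries of mated females.

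Ltf, the lactoferrin gene, was at 1863, 2829.9 and 2075 CPM in the estrus libraries 1, 2 and 4. In INT 1 to 4 it was at 2143, 639, 27.3 and 45.0 CPM. INT 1 thus lay within the estrus range and INT 3 and 4 far under it, and the groups overlapped. The INT logFC was -1.66 (SE 1.60), with an FDR of 0.422 in edgeR's quasi-likelihood test, and without INT 1 it was -3.25 with an FDR of 0.149. In SVX 1 to 4 Ltf was at 272, 32.8, 19.9 and 15.4 CPM, all of them under estrus, and it fell by 4.73 on the log2 scale (SE 1.77, edgeR FDR 0.0307). That call was lost without CONT 2 (FDR 0.0546), SVX 2 (0.0753), SVX 3 (0.0753) or SVX 4 (0.0748), and with limma-voom (0.077) and its TREAT test (0.171). Without SVX 1 Ltf fell by 6.63 in SVX (edgeR FDR 0.0129). In SVX_VAS 1 to 4 it was at 16.6, 2286, 20.9 and 193 CPM, so that 1 library was at the estrus level and another among the lowest of all 19. The SVX_VAS logFC was -1.84 (SE 1.60, edgeR FDR 0.356), and without SVX_VAS 2 it was -4.88 with an FDR of 0.0275. VAS 1 to 4 were at 709, 220.1, 151 and 37.9 CPM, all under estrus, with a logFC of -3.01 (SE 1.65, edgeR FDR 0.13). Without VAS 2 and 3 the VAS logFC was -2.53 and the FDR 0.355. Without VAS 1 the VAS logFC was -4.05 with an FDR of 0.0762.

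Lcn2, the lipocalin gene, was at 1362, 1398 and 1493 CPM in estrus. In INT 1 to 4 it was at 1172, 408, 4.76 and 4.03 CPM. The highest INT library reached 82.7% of the estrus mean and the lowest 0.285%, without overlap with estrus. The logFC of -1.84 (SE 1.83) was not called, with an edgeR FDR of 0.44, and without INT 1 it was -3.35 with an FDR of 0.206. SVX 1 to 4 were at 30.0, 2.50, 2.76 and 4.48 CPM, and Lcn2 fell by 7.16 on the log2 scale (SE 2.26, edgeR FDR 0.0126), the largest of the 24 differences from estrus. That call was lost with limma-voom (FDR 0.122) and its TREAT test (FDR 0.254). Without SVX 1 Lcn2 fell by 8.76 in SVX (edgeR FDR 0.013). SVX_VAS 1 to 4 were at 3.41, 1046, 1.70 and 155 CPM, with a logFC of -2.23 (SE 1.85, edgeR FDR 0.33). SVX_VAS 2 again stood near estrus, and without it the logFC was -4.73 with an FDR of 0.0745. VAS 1 to 4 were at 289.9, 93.5, 47.9 and 3.02 CPM, with a logFC of -3.71 (SE 1.94, edgeR FDR 0.113), which was -3.20 with an FDR of 0.318 without VAS 2 and 3. Without VAS 1 the VAS logFC was -4.88 with an FDR of 0.0735. Only in 1 of the 16 libraries of mated females, SVX_VAS 3 with 26 reads, did Lcn2 fall under 2 CPM, and every library held counts of it.

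C3, the complement gene, was at 4981, 6569 and 5656 CPM in estrus and at 3964, 1436, 128 and 169 CPM in INT 1 to 4. No INT library reached the estrus range, though INT 1 was close to the estrus range. The INT logFC of -2.01 (SE 1.15, edgeR FDR 0.165) was not called with all libraries, and it was called without INT 1, at -3.31 with an FDR of 0.0373. SVX was the most even group for C3, at 185, 158, 144 and 175 CPM in libraries 1 to 4, and fell by 5.11 on the log2 scale (SE 1.29, edgeR FDR 0.00287). SVX_VAS 1 to 4 were at 186, 4593, 182 and 506 CPM, with a logFC of -2.07 (SE 1.15, edgeR FDR 0.143). Without SVX_VAS 2 that difference was called, at -4.30 with an FDR of 0.00464. VAS 1 to 4 were at 1005, 426, 209 and 123 CPM, and C3 fell by 3.70 on the log2 scale (SE 1.21, edgeR FDR 0.0159). Without VAS 2 and 3 the VAS difference was -3.28 and no longer called, with an FDR of 0.106. Without VAS 1 the VAS difference was -4.50 and called, with an FDR of 0.0103.

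Muc1, the surface mucin, was called lower in the 4 comparisons with estrus, where it was at 427, 414 and 423 CPM. INT 1 to 4 were at 169, 139.6, 20.3 and 26.3 CPM. All of them lay under the estrus libraries, and even the highest, INT 1, was at 40.0% of the estrus mean. Muc1 fell by 2.25 on the log2 scale (SE 0.814, edgeR FDR 0.0312). The call was lost when CONT 1 (FDR 0.0638), CONT 2 (0.0554), CONT 4 (0.0584), INT 3 (0.0680) or INT 4 (0.0826) was left out. SVX 1 to 4 were at 40.6, 23.7, 20.9 and 25.5 CPM, and Muc1 fell by 3.93 (SE 0.864, edgeR FDR 0.00104). SVX_VAS 1 to 4 were at 22.7, 212, 25.0 and 76.4 CPM, and Muc1 fell by 2.33 (SE 0.815, edgeR FDR 0.0239), a call that was lost without SVX_VAS 1 (FDR 0.0624), SVX_VAS 3 (0.0644) or SVX_VAS 4 (0.0516). Without SVX_VAS 2 the SVX_VAS logFC was -3.35 and called, with an FDR of 0.00316. VAS 1 to 4 were at 130.5, 89.2, 43.8 and 19.99 CPM, and Muc1 fell by 2.57 (SE 0.82, edgeR FDR 0.0137). The highest library of each group was again INT 1, SVX 1, SVX_VAS 2 and VAS 1. Without VAS 2 and 3 the VAS logFC was -2.42 and not called (FDR 0.0788).

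Clca3a1 was the 1 gene of the 6 that was higher in mated females, against the name of an estrogen-driven gene. It was at 13.4, 18.9 and 13.9 CPM in estrus and at 42.3, 29.2, 39.7 and 35.0 CPM in INT 1 to 4. No INT library overlapped with estrus, and the INT libraries were close together. The logFC was 1.24 (SE 0.345, edgeR FDR 0.00732), about 2.37-fold. SVX 1 to 4 were at 39.1, 58.1, 78.7 and 77.6 CPM, with a logFC of 2.04 (SE 0.355, edgeR FDR 0.000148). SVX_VAS 1 to 4 were at 83.8, 56.9, 59.0 and 53.0 CPM, with a logFC of 2.03 (SE 0.355, edgeR FDR 0.000189). SVX_VAS 2, which was near estrus for Ltf, Lcn2 and C3, was among the other libraries of its group for Clca3a1. VAS 1 to 4 were at 18.9, 37.7, 54.4 and 68.1 CPM, with a logFC of 1.53 (SE 0.348, edgeR FDR 0.00146), and VAS 1 was level with the highest estrus library. Leaving out any 1 of the 19 libraries kept the 4 calls, as did leaving out VAS 2 and 3 together, with a VAS logFC of 1.52 and an FDR of 0.00594.

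Clca3a2 was under the estrus libraries in most libraries of mated females and over them in 3. It was at 17.1, 35.2 and 18.1 CPM in estrus and at 38.4, 2.69, 1.87 and 0.904 CPM in INT 1 to 4. SVX 1 to 4 were at 4.95, 2.19, 2.40 and 3.49 CPM, SVX_VAS 1 to 4 at 2.11, 80.0, 1.05 and 3.51, and VAS 1 to 4 at 3.02, 48.4, 12.0 and 1.61. SVX_VAS 2, VAS 2 and INT 1 exceeded every estrus library, and 13 libraries of mated females were under all of them. No difference from estrus was called with all libraries. The logFC was -1.11 (SE 1.41) in INT, -2.85 (SE 1.49) in SVX, -0.11 (SE 1.41) in SVX_VAS and -0.53 (SE 1.41) in VAS, with edgeR FDRs of 0.56, 0.115, 0.957 and 0.759. Without INT 1 the INT logFC was -3.68, with an FDR of 0.0537. Without SVX_VAS 2 the SVX_VAS logFC was -3.40 and called, with an FDR of 0.0455, and without VAS 2 and 3 the VAS logFC was -3.27, with an FDR of 0.149.

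**Figure D2:**
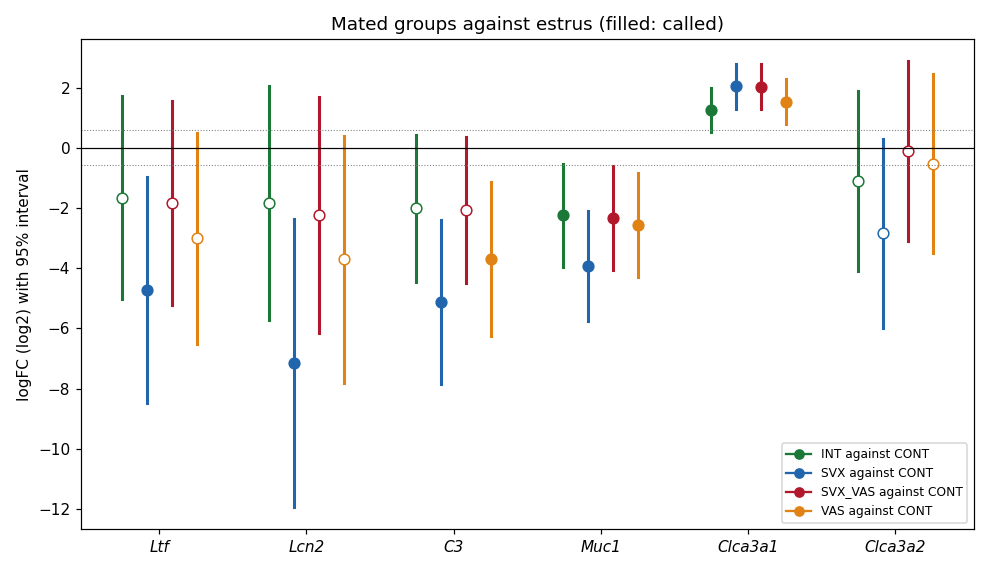
logFC with its 95% interval (edgeR) for each gene in INT, SVX, SVX_VAS and VAS against CONT. Filled points were called and dotted lines mark the cutoff of about 1.5-fold. The interval of Lcn2 in INT runs from -5.71 to 2.04, and that of Clca3a1 from 0.511 to 1.97.

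The Clca values carry a limit of counting. The longest coding transcripts of Clca3a1 and Clca3a2 were 96.4% identical where aligned, with an identical run of 242 bases, and 23.6% of the 50-base stretches of Clca3a1 also occur in Clca3a2. Reads from such stretches could be split or dropped by the counting, so the 2 genes' levels are uncertain. Clca3b, a neighbour on chromosome 3, was 81.1% identical to Clca3a1 and 80.8% to Clca3a2. On the opposite strand Clca3a1 overlaps Gm34866 and Clca3a2 overlaps Gm43240, and whether featureCounts was told the strand is not given in the sources used here. Gm34866 reached at most 9.41 CPM and Gm43240 at most 9.31, each under the value of its Clca partner in the same library in all 19 libraries. No exon of Ltf, Lcn2, C3 or Muc1 overlaps another gene. The symbol Clca1 needs care as well, since older annotations used it for Clca3a1, while the gene now named Clca1 was formerly gob5 or Clca3.

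**Figure D3:**
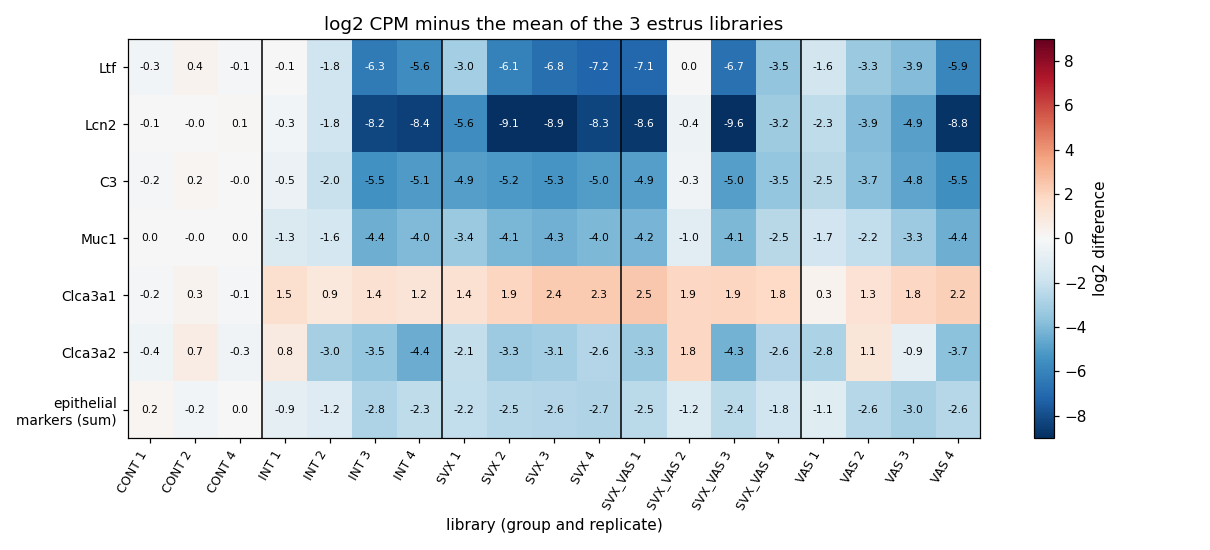
log2 CPM of each gene in each library minus the mean of the 3 estrus libraries, with the summed CPM of 13 epithelial marker genes in the last row. Blue cells are below estrus and red cells above it. INT 1, INT 2, SVX_VAS 2 and VAS 1 are pale for Ltf, Lcn2, C3 and Muc1, and the row of Clca3a1 is above 0 in all libraries of mated females.

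Library by library, Ltf, Lcn2, C3 and Muc1 ranked the mated females alike. The 2 highest of the 16 libraries were INT 1 and SVX_VAS 2 for each of the 4 genes, the 4 highest added INT 2 and VAS 1, and 7 of the 8 highest were shared. Across the 19 libraries Pearson's r of log2 CPM was 0.977 between Ltf and Lcn2, 0.936 between Ltf and C3, 0.955 between Ltf and Muc1, 0.943 between Lcn2 and C3, 0.969 between Lcn2 and Muc1 and 0.974 between C3 and Muc1. Within the 16 libraries of mated females these values were 0.908 to 0.979, so the likeness was also there without the estrus libraries. Clca3a1 ran against them, with r from -0.791 to -0.701 over the 19 libraries and from -0.575 to -0.394 over the 16. Clca3a2 ran with them, at 0.75 to 0.784 over the 19, and 0.694 to 0.731 over the 16, and its r with Clca3a1 was -0.359 over the 19 and -0.0768 over the 16. These are descriptions of libraries that share depth, tissue makeup and, over the 19, the same 3 estrus libraries.

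Among the groups of mated females, 0 of the 6 genes and 0 of the 17222 tested genes (0%) were called in any of the 6 comparisons by edgeR's quasi-likelihood test. At an unadjusted p under 0.05, 749 genes passed between SVX and INT, 339 between SVX_VAS and INT, 1831 between VAS and INT, 240 between SVX and SVX_VAS, 2651 between SVX and VAS and 2520 between SVX_VAS and VAS. DESeq2 called 3, 2, 0, 0, 1 and 26 genes in these comparisons, none of them among the 6. The comparisons with VAS depended on the tool and on single libraries. Of all genes limma-voom called 1663 between VAS and INT, 1656 between SVX and VAS and 1807 between SVX_VAS and VAS, and edgeR without VAS 4 called 135, 685 and 575. Without VAS 1 edgeR called 578 between VAS and INT, and without VAS 2 and 3 together it called 0 in the 3 comparisons. None of these calls of limma-voom and edgeR was of the 6 genes. Between SVX and INT, 4 of the 6 genes were at an unadjusted p under 0.05: Lcn2, C3, Muc1 and Clca3a1. The SVX logFC against INT was -5.32 for Lcn2 (95% interval -9.67 to -0.973), -3.10 for C3 (-5.54 to -0.672), -1.68 for Muc1 (-3.32 to -0.0418), -3.07 for Ltf (-6.46 to 0.323) and 0.79 for Clca3a1 (0.141 to 1.45), with edgeR FDRs near 1 throughout (0.9997). The groups overlapped for the 6 genes, where 2.6% of all tested genes had no overlap, and exact permutation tests of 4 against 4 libraries gave two-sided p of 0.2 for Lcn2, 0.371 for C3, 0.286 for Muc1, 0.2 for Ltf and 0.0857 for Clca3a1, where the smallest possible is 0.0286. Leaving out 1 library moved these differences to between -6.93 and -3.81 for Lcn2, -4.97 and -1.48 for Ltf, and -3.48 and -1.80 for C3. The smallest of each came without INT 1, and the largest for Lcn2 and Ltf without SVX 1. Between SVX and SVX_VAS, Lcn2 and C3 were at an unadjusted p under 0.05, with logFCs of -4.92 (-9.20 to -0.654) and -3.05 (-5.47 to -0.619). The groups overlapped for both genes, and their edgeR FDRs were near 1 (0.99996). Exact permutation tests gave two-sided p of 0.371 for Lcn2 and 0.0571 for C3. Without SVX_VAS 2 the logFCs were -2.42 and -0.81. The one gene at an unadjusted p under 0.05 between SVX_VAS and INT was Clca3a1, with a logFC of 0.79 (0.138 to 1.44), where the groups had no overlap (1.75% of all tested genes) and the exact permutation p was 0.0286, the smallest possible. In the 3 comparisons with VAS the smallest unadjusted p of the 6 genes was 0.0864, for Lcn2 between SVX and VAS. Without VAS 2 and 3 the Lcn2 logFC there went from -3.45 to -3.93. Clca3a2 changed sign, from -2.32 to 0.44 between SVX and VAS and from 0.58 to -2.18 between VAS and INT, and went from 0.41 to 3.19 between SVX_VAS and VAS. Where no difference was called the groups are not shown to be alike, and the interval of Ltf between SVX_VAS and INT ran from -3.31 to 2.95.

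**Figure D4:**
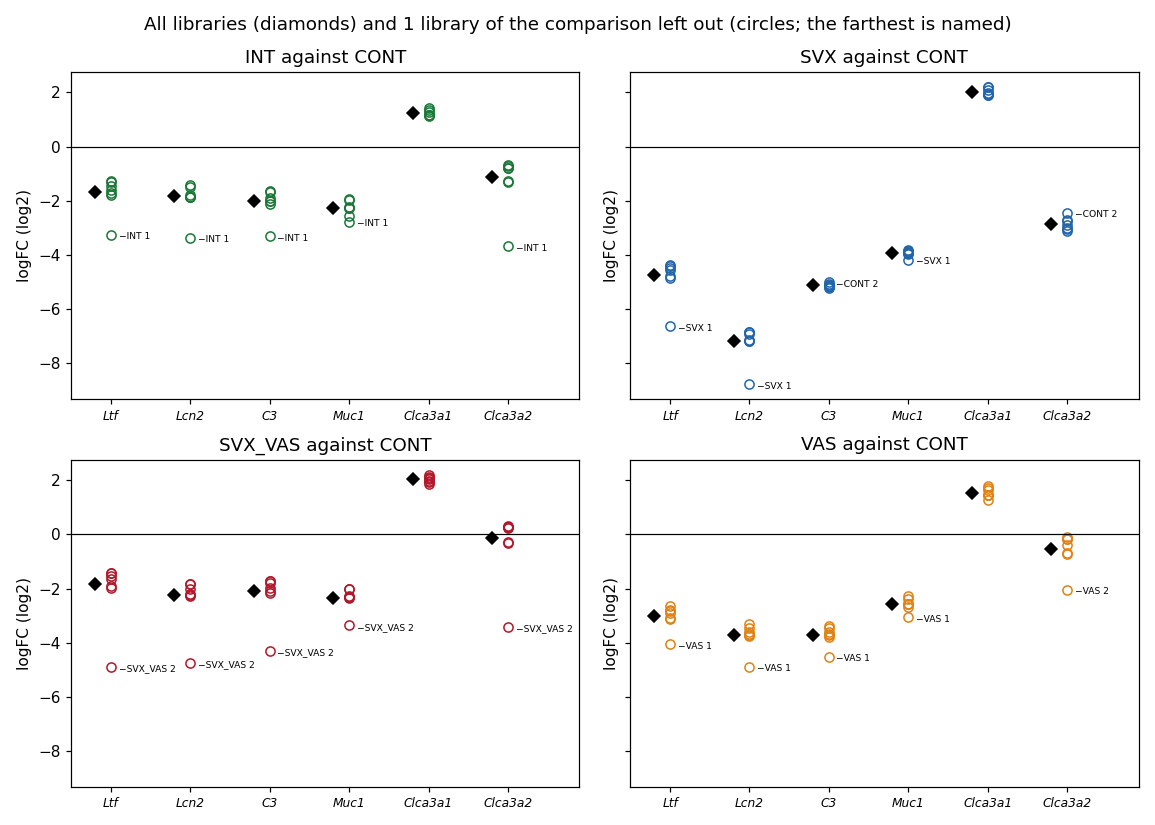
logFC of each gene against estrus with all libraries (diamonds) and with 1 library of the comparison left out (circles). The circle farthest from the diamond is named after the library left out where it is shown. Without SVX_VAS 2 the Ltf difference moves from -1.84 to -4.88, and Clca3a1 stays between 1.87 and 2.21 in SVX_VAS.

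Epithelial marker genes were high and low in largely the same libraries as the 4 genes. The summed CPM of 13 markers (Epcam, keratins, claudins and others) was 5341 to 7136 in CONT, 909 to 3328 in INT, 978 to 1350 in SVX, 1136 to 2694 in SVX_VAS and 785 to 2967 in VAS (1066 to 2967 without VAS 2 and 3). Between INT and CONT 9 of the 13 were lower and none higher, beside 12.7% of all genes called lower, with a median logFC of -1.49 beside -0.01 over all genes, and the transcription factor Elf3 had the lowest value, -2.41 (edgeR FDR 0.0399), and the claudin Cldn3 the highest, 0.02 (FDR 0.969). In SVX, SVX_VAS and VAS 11, 10 and 10 of the 13 were lower, beside 18.5%, 16.5% and 17.3% of all genes, and without VAS 2 and 3 the last count was 5. Among the mated females the highest marker sum was 4.24 times the lowest. Divided by it, the highest exceeded the lowest 269-fold for Lcn2, 58.1-fold for Ltf, 14.8-fold for C3 and 4.60-fold for Muc1. For each of the 4 genes that range was smaller than before the division and wider than that of the marker sum. A single marker could range more widely than the sum. Over the 19 libraries Elf3 ran from 18.2 to 974 CPM, and Muc1 from 19.99 to 427 CPM. The ranges of the other single markers are not given here, so the 4 genes are not shown to vary beyond single epithelial markers. Per 1000 CPM of epithelial markers, Ltf was at 261 to 530 CPM in estrus and 14.6 to 849 in mated females, and INT 1 and SVX_VAS 2, at 644 and 849, exceeded the estrus libraries on that scale. Clca3a1 was at 1.88 to 3.53 in estrus and 6.36 to 79.4 in mated females, without overlap. The marker sum was lower in mated females, so the division by itself widens that gap. Before it, VAS 1 was level with the highest estrus library. Whether the RNA of Clca3a1 came from epithelium was not tested. The part of epithelial content in these differences was not tested.

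**Figure D5:**
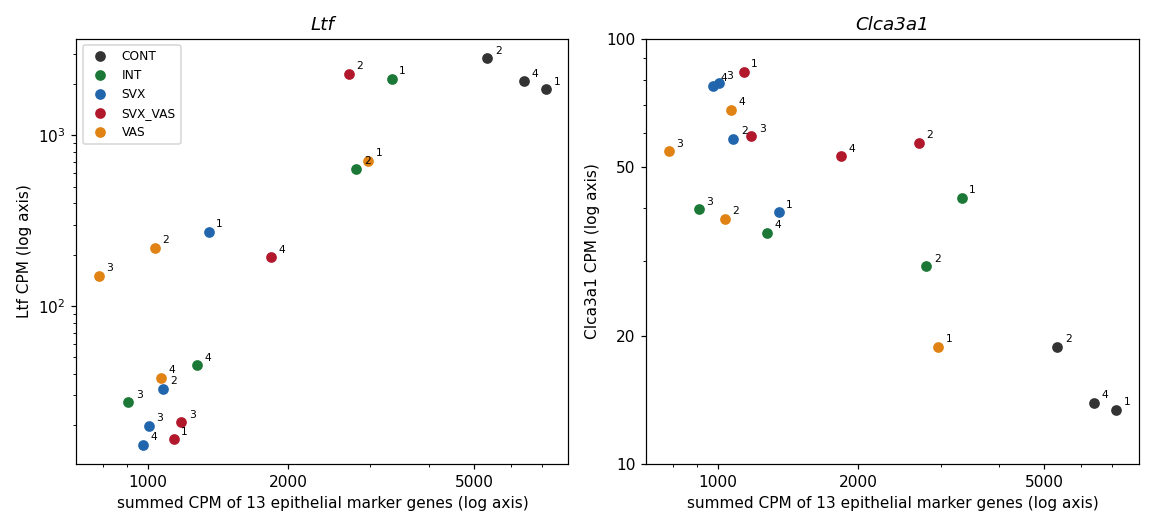
CPM of Ltf (left) and Clca3a1 (right) against the summed CPM of 13 epithelial marker genes in the 19 libraries, both on log axes, with replicate numbers beside the points. Ltf is high where the marker sum is high, in estrus, INT 1, SVX_VAS 2, INT 2 and VAS 1, and Clca3a1 is lowest in the 3 estrus libraries and VAS 1.

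Neutrophil markers other than Ltf and Lcn2 went in both directions. The summed CPM of 16 of them was 17.1 to 19.96 in estrus, 17.1 to 23.0 in INT, 14.1 to 19.8 in SVX, 16.4 to 27.0 in SVX_VAS and 22.1 to 99.6 in VAS (22.1 to 34.0 without VAS 2 and 3), and Elane, which marks their precursors, was at 0 in 17 libraries and at most at 0.0781 CPM in the others. The libraries with the highest sums, VAS 3 and VAS 2, with S100a8 at 7.99 and 6.30 CPM, had 151 and 220.1 CPM of Ltf. Of the 16 markers 5 were tested, and in INT 1 was higher and 1 lower, beside 20.9% and 12.7% of all genes. In SVX 1 was higher and 1 lower (23.1% and 18.5% of all genes), and in SVX_VAS 2 and 1 (22.2% and 16.5%). In VAS 3 were higher and 1 lower (23.3% and 17.3%). Without SVX_VAS 2 the SVX_VAS counts were 1 and 1, and without VAS 2 and 3 the VAS counts were 2 and 1. Csf3r, a growth factor receptor of neutrophils, had a logFC of 1.64 in INT (edgeR FDR 0.00582) and was called higher in the 4 groups. Ly6g, a surface protein of mouse neutrophils, was lower in the 4 groups. It was at 11.2, 6.99 and 9.27 CPM in estrus and at 2.86, 3.07, 0.170 and 0.209 CPM in INT 1 to 4, with a logFC of -2.54 (edgeR FDR 0.0137), and it was called lower in SVX, SVX_VAS and VAS too (edgeR FDRs 0.00015, 0.000892 and 0.00922, and 0.0494 in VAS without libraries 2 and 3). VAS 1, at 3.19 CPM, was its highest library of mated females, and SVX_VAS 2 was at 0.716 CPM.

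Other cell types were checked in the same way. Smooth muscle markers were at 391 to 799 CPM in estrus and 376 to 1378 in mated females, squamous markers of cervix and vagina at 22.7 to 53.8 and 7.49 to 31.2, stromal markers at 6444 to 6891 and 2361 to 11170 (7735 to 11170 without VAS 2 and 3), and macrophage markers at 154 to 276 and 325 to 481. In INT 1 of 8 smooth muscle and 7 of 11 stromal markers were higher and none lower, beside 20.9% and 12.7% of all genes, with logFCs from -0.23 (Actg2) to 0.93 (Myh11) and from -0.10 (Dcn) to 2.72 (Hoxa11). Of 7 macrophage markers 4 were higher and 1 lower, from the lysosomal gene Cd68 at -1.22 (edgeR FDR 0.0233) to the lysozyme gene Lyz2 at 1.77. Cd68 was lower in the 4 groups, and SVX_VAS 2, at 43.9 CPM, was within its estrus range of 39.1 to 44.5 CPM. Of 4 squamous markers none was called in INT, where Krt5 had a logFC of -1.76 and Krt10 of -0.40. But 3 were lower in SVX, beside 18.5% of all genes: Krt13 by 4.60 (edgeR FDR 0.00959), Dsg3 by 1.68 (FDR 0.0222), and Krt5 (FDR 0.0209). Krt5 was at 1.24, 6.03 and 1.43 CPM in estrus and at 0 in 3 of the 4 SVX libraries. In SVX_VAS and VAS 1 squamous marker each was lower, beside 16.5% and 17.3% of all genes. The counts were 3 in SVX_VAS without SVX_VAS 2 and 0 in VAS without VAS 2 and 3. In INT without INT 1 the count was 1. Gland genes gave 5 higher and 1 lower of 8 in INT, from Gpx3 at -1.51 (edgeR FDR 0.00542) to Ttr, which was at 0.118, 0 and 0 CPM in estrus and 1.88 to 5.91 CPM in INT. Oviduct genes gave 2 higher and 1 lower of 5, from Foxj1 at -2.07 (FDR 0.0639) to Dnah5 at 5.30. Without INT 1 the gland genes gave 5 higher and 2 lower, and the oviduct genes 3 and 2. Of 12 proliferation genes none was called in INT, with logFCs from -0.98 (Ccnb1) to -0.14 (Pcna). In SVX, SVX_VAS and VAS 2, 7 and 1 were lower, beside 18.5%, 16.5% and 17.3% of all genes, and none was higher. The counts were 6 in SVX_VAS without SVX_VAS 2 and 0 in VAS without VAS 2 and 3. The part of these cells in the results was not tested.

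Of 20 tested other genes known to respond to estrogen in the uterus, 3 were higher and 2 lower in INT than in estrus, no larger a share in either direction than among all genes (20.9% and 12.7%), with a median logFC of -1.28 beside -0.01 over all genes. Greb1, a classical early estrogen target, fell by 2.50 (SE 0.767, edgeR FDR 0.0132), and Igf1, the growth factor made by the stroma, rose by 2.71 (SE 0.321, edgeR FDR 1.01e-05). In SVX 3 were higher and 12 lower, beside 23.1% and 18.5% of all genes. In SVX_VAS 3 were higher and 5 lower (8 lower without SVX_VAS 2), beside 22.2% and 16.5% of all genes. In VAS 3 were higher and 3 lower (3 and 1 without VAS 2 and 3), beside 23.3% and 17.3%. The 8 genes listed as induced by progesterone gave 6 higher and none lower in each of the 4 groups, where 20.9% to 23.3% of all genes were higher, with a median of 4.16 in INT, where Hsd11b2 had the lowest logFC, -0.09. Acod1, which makes itaconate, rose most, by 8.31 in INT (SE 0.871, edgeR FDR 4.64e-06), from 0.177, 0.214 and 0.527 CPM in estrus to between 51.0 and 163. INT 1, the library with estrus-like Ltf, was at 51.0 CPM of Acod1, and SVX_VAS 2 at 57.5. The estrogen receptor gene Esr1 was at 905 to 1064 CPM in estrus and 651 to 880.2 in INT (logFC -0.32, edgeR FDR 0.318), and was called lower only in VAS (-0.74, FDR 0.0185), where libraries 2 and 3 were at 365 and 347 CPM. Without those libraries it was at -0.22 and not called (FDR 0.166). The progesterone receptor gene Pgr had a logFC of 0.23 in INT (edgeR FDR 0.544). Receptors and cofactors together gave 3 higher and none lower of 10 in INT, beside 20.9% and 12.7% of all genes, led by Hand2 at 2.27 (edgeR FDR 0.000216), and the coactivator gene Ncoa3 had the lowest logFC, -0.35.

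The families of the 6 genes were described gene by gene. In the transferrin family and iron handling, 2 of 6 genes tested besides Ltf were lower in INT, beside 12.7% of all genes. They were Tfrc, the transferrin receptor, by 1.83 (edgeR FDR 0.00939), and Slc11a2, an iron importer, by 0.67 (FDR 0.0231). Slc40a1, the iron exporter ferroportin, had a logFC of -2.16 (FDR 0.159), Meltf, melanotransferrin, -2.26 (FDR 0.0788), and the ferritin genes Fth1 and Ftl1 0.23 and -0.46 (FDRs 0.695 and 0.501). The 2 known Lcn2 receptors were both higher in INT, beside 20.9% of all genes, Lrp2 (megalin) by 4.63 and Slc22a17 by 1.58 (edgeR FDRs 6.22e-06 and 7.74e-06). In SVX, where Lcn2 was called lower, Lrp2 was higher by 5.11. The other lipocalin genes of the list, Lcn5, Lcn8, Lcn12, Ptgds, Obp2a and Rbp4, were too low to be tested.

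Complement genes other than C3 went in both directions. Beside 20.9% and 12.7% of all genes, 6 of 12 tested components were higher and none lower in INT, with a median logFC of 0.57. These were the C1 genes C1qa (0.93), C1qb (0.91), C1qc (1.02), C1ra (1.77) and C1s1 (1.56), and Masp1 (2.80), a protease of the lectin pathway. Cfb, the factor B gene that joins C3 in the alternative convertase, had a logFC of -1.61 (edgeR FDR 0.204) and was at 11.5, 16.6 and 13.4 CPM in estrus and 12.4, 4.45, 0.793 and 0.626 in INT. In SVX, where C3 was called, 6 components were higher and 2 lower, beside 23.1% and 18.5% of all genes. Cfb fell by 3.91 (edgeR FDR 0.00647), and C2, which joins C4 in the classical convertase, by 1.10 (FDR 0.00339). Without INT 1 and without SVX_VAS 2 those groups also had 6 higher and 2 lower. In VAS, where C3 was called too, 6 components were higher and none lower, beside 23.3% and 17.3% of all genes. Of 13 receptors and regulators, 5 were higher and 3 lower in INT, beside 20.9% and 12.7% of all genes. In SVX 5 were higher and 5 lower, beside 23.1% and 18.5%. There Cfi, a protease that cuts C3b, fell by 4.21 (edgeR FDR 0.00424). In INT the C3a receptor gene C3ar1 rose by 0.91 and Itgax, a chain of a receptor for C3 fragments, by 1.38, while Itgam, the chain of another such receptor, fell by 2.39. The regulator Cd55 fell by 1.07 and Clu by 1.11, while Cd59a rose by 0.67, Serping1 by 0.72 and Vtn by 1.22.

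Of 6 tested mucins besides Muc1, none was called in INT, with a median logFC of -1.56, and without INT 1 the median was -2.33 and 2 were lower. In SVX 4 were lower, beside 18.5% of all genes. Muc4, another membrane mucin, was at 1877, 1931 and 2146 CPM in estrus and at 1154, 609, 13.9 and 8.83 in INT (logFC -2.15, edgeR FDR 0.328), and Muc20 had a logFC of -2.31 (FDR 0.243). Muc13 was at -3.08 (FDR 0.0876), Muc5b at -0.96 (FDR 0.0649), Muc16 at 0.26 (FDR 0.638) and Muc6 at 0.28 (FDR 0.848). In the Clca family, Clca2 rose like Clca3a1, with a logFC of 1.76 in INT (SE 0.254, edgeR FDR 4.83e-05). Clca1 was at 2122, 3041 and 2664 CPM in estrus and at 1881, 579, 2.89 and 6.89 in INT, in the same order of INT libraries as Ltf. Its logFC was -2.08 (SE 2.04, edgeR FDR 0.433), and it reached 2121 CPM in SVX_VAS 2. Clca3b had a logFC of -1.43 (edgeR FDR 0.552), with 59.2 CPM in SVX_VAS 2 and 34.7 in VAS 2, the libraries that were highest for Clca3a2.

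The tested genes most like each of the 6 over the 19 libraries, by Pearson's r of log2 CPM, are given as a description. For Ltf they were Clca1 (0.986), Sprr2f (0.985), Muc20 (0.98), Slc40a1 (0.977) and Mal2 (0.971). For Lcn2 they were Muc20 (0.994), Clca1 (0.99), Muc4 (0.989), Mal2 (0.988) and Sprr2f (0.985), so 4 genes were named for both. C3 was nearest to Ctsh (0.987), Ceacam1, Tspan1, Ckmt1 and Il13ra1 (0.979), and Muc1 to Bhlhe40 (0.993), Ceacam1, St14, Eps8 and Elf3 (0.989). Clca3a1 was nearest to Dnah6 (0.962), Syt15, R3hdm1, Crem and Coch (0.942). Clca3a2 was nearest to Sprr2d (0.954), Peg10, Grpel2, Trim40 and Slc41a2 (0.942). No gene near Clca3a1 or Clca3a2 was named for another of the 6.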

How the data were processed

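Endometrial RNA of 19 mouse libraries was analysed from the gene counts the authors deposited. According to the study's methods and the submitters' processing notes, a stranded total RNA kit and paired-end sequencing were used, adapters were trimmed, reads were aligned to GRCm38 with STAR, and counts per gene were made with featureCounts, with no normalization in the deposited counts. The strand setting was not found. Reads were not analysed here, and 0 columns of the counts were left unmapped to a sample.

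Computed here in R 4.3.3 were TMM factors and the quasi-likelihood test of edgeR 4.0.16 on all 19 libraries in 1 fit of 5 groups, without a replicate block, for genes that reached 3 CPM in 3 or more libraries. P-values were adjusted over the 17222 tested genes by the Benjamini-Hochberg method. CPM used the TMM factors, RPKM also the exon length given beside the counts, and log2 CPM a prior count of 2. Intervals are at 95%, and limits for a count of 0 cover counting error only. Marker sums add the CPM of a list in a library, and the neutrophil sum leaves out Ltf and Lcn2. Groups were compared in 10 pairs, and exact permutation tests were two-sided. The fit was tested on simulated data. Promoters were read from RefSeq tables of GRCm38.p6. Figures were drawn with Python 3.11.15 and matplotlib 3.10.9.

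The 6 genes and the lists were chosen with earlier results of these data known. Named besides the 6 were, for each list, the tested genes with the largest and smallest logFC in INT, tested genes of the same families, Esr1, Pgr, and for each of the 6 the 5 most similar genes. Other list genes, the markers S100a8 and Elane, the stromal gene Col3a1 and the antisense genes were named after their values were seen. Of 209 list genes, 207 were found in the counts, and 1 further gene is not reported here.

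Alternatives were DESeq2's size factors (RLE) or library totals as scaling, no filter, edgeR's filterByExpr, limma-voom from limma 3.58.1 (alone, with TREAT at the cutoff on the logFC, or with sample quality weights), DESeq2 1.42.0, only the 2 groups compared in the fit, a replicate block, an FDR with no cutoff on the logFC, and each library left out in turn. Leaving out VAS 2 and VAS 3 together was chosen after seeing the data.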

Additional observations from a re-analysis of the deposited data

Results flagged for a closer look

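Groups of 4 libraries were examined for a library whose gap to the nearest other exceeds Dixon's 95% critical value as a share of the group's range, for the 6 genes and the marker lists. Of 60 groups 4 passed, and chance gives about 3. No value of the 6 genes was among them. The median log2 CPM of the oviduct markers was 4.76 in INT 4 against 3.41 to 3.62 in the other INT libraries. Of the epithelial markers it was 8.0 in VAS 1 against 5.91 to 6.24 in the other VAS libraries, and VAS 1 also had the highest Ltf, Lcn2, C3 and Muc1 of its group. In SVX_VAS 3 the stromal median was 8.72 against 8.84 to 8.86, and in SVX_VAS 2 the macrophage median was 5.43 against 5.28 to 5.29. SVX_VAS 2 is the library of its group with the highest Ltf.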

How the results depend on the processing

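The number of the 6 genes called against estrus depended on the tool where libraries were uneven. For INT, where 2 were called, limma-voom with TREAT gave 0 and sample quality weights gave 4, beside 13.4% and 37% of all genes. For SVX, with 5, limma-voom gave 3 and TREAT gave 3 (42.3% and 21.7% of all genes), both without Ltf and Lcn2, while DESeq2, quality weights and the fit of only the 2 groups gave 6 (42.1%, 47.3% and 46.7%). For SVX_VAS, with 2, TREAT gave 1 and quality weights gave 6, beside 18.1% and 45.7%. For VAS, with 3, TREAT gave 0, quality weights gave 5, the fit of only the 2 groups gave 5, DESeq2 gave 4, and leaving out VAS 2 and 3, chosen after seeing the data, gave 1, beside 27.5%, 58.7%, 33.2%, 41.3% and 35.9% of all genes. With 1 library left out the calls were 1 to 3 in INT, 4 to 5 in SVX, 1 to 5 in SVX_VAS and 3 in VAS, beside 28.6% to 36.4%, 37.6% to 42.5%, 33.5% to 39.9% and 35.8% to 47.9% of all genes. Among the mated groups quality weights called 1 gene between SVX and VAS and 1 between SVX_VAS and VAS, Clca3a2 both times, and turned the latter from a logFC of 0.41 to -2.61. Over all genes, in the 3 comparisons with VAS, where edgeR called 0, TREAT called 808 to 992 and quality weights 4649 to 4734. The causes were not tested, and quality weights give less weight to libraries far from their group. Scaling by library totals moved the median logFC of all genes against estrus to between 0.17 and 0.34, from about 0, and no call of the 6 genes changed with it or with RLE factors. Clca3a1 was called higher in the 4 comparisons under each alternative but TREAT, which lost it in INT (FDR 0.278) and VAS (FDR 0.103). Replicate numbers did not pair the libraries: deviations from the group means correlated at a median of 0.0469 in 36 pairs of the same number (from -0.688 to 0.58) and -0.0343 in 108 others, and 4 of 19 libraries correlated best with their own number. With a replicate block 2, 5, 2 and 3 of the 6 genes were called in INT, SVX, SVX_VAS and VAS, as without it, beside 32.6%, 40.2%, 37.2% and 39.4% of all genes. The 6 genes had 13 to 184175 reads in a library, and Clca3a2 in INT 4 had the fewest.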
